A study of Mus musculus with 105 samples.

Results

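Calml4, Gab1, Nlrp4f, Slc23a1, Vrtn, Ripply1 and Gad1 are 7 of the 53656 rows in each of 2 symbol-based count tables of mouse embryonic stem cells. They were selected on their measured expression, as genes higher in cells with an active fusion protein called S12N:SUV2, and their rows were read in every other group as well. Their values in the S12N:SUV2 lines are therefore given as a description, with no test. Poly(A) RNA was sequenced in 105 samples that form 35 groups of 3, in 5 datasets. Counts were used for 93 libraries in 31 groups, and the 12 samples given the KDM4 inhibitor QC6352 were not analysed here.

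The first dataset, called the panel, holds 8 groups of E14TG2a cells with no treatment. In 5 groups, cells with a Suz12 knockout carried S12N, a SUZ12 that lacks the VEFS domain, either alone or fused: S12N:SUV2, its inactive version (S12NSUV2dead), S12N:SD2, its inactive version (S12NSD2dead) and S12N by itself. The others were knockout cells with SUZ12 put back, knockout cells and wild-type cells. The names SUV2 and SD2 are not spelled out in the labels. The second dataset used E14TG2a cells with RBBP5 fused to the FKBP degradation tag (R cells), the same with a Suz12 knockout (RS cells), and RS cells with S12N:SUV2, each kept for 24 h in DMSO or in dTAG13, which triggers breakdown of the tagged protein. The third repeated this design with S12N:SD2 in place of S12N:SUV2, with 500 nM dTAG-13 for 24 h. The fourth followed a SUZ12-mAID line with OsTIR (line TCF) kept in 50 µM IAA for 2, 4, 8, 24 or 48 h, with 48 h in DMSO as its control. In the fifth, called the HP1 dataset, knockout cells of E14Tg2a carried S12N fused to the HP1a chromodomain, S12N or full-length SUZ12, beside knockout and wild-type cells. Every construct was studied in 1 line as far as the labels tell, so a construct and its line cannot be told apart. The labels give serum with LIF as the medium for the first 3 datasets and no medium for the others.

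SUZ12 is a core subunit of PRC2, the complex that methylates lysine 27 of histone H3 at genes kept off in stem cells. Its VEFS domain holds the catalytic subunit, and its N-terminal part brings the complex to its target sites. RBBP5 is a core subunit of the complexes that methylate lysine 4 of histone H3, a mark of active promoters. HP1 proteins bind methylated lysine 9 of histone H3, a mark of heterochromatin written by enzymes that include SUV39H1 and SUV39H2.

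The 7 genes have unlike roles. Gab1 encodes a docking protein that receptor tyrosine kinases use to recruit PI3 kinase and the phosphatase SHP2. Calml4 encodes a calmodulin-like light chain of a myosin of the gut brush border. Slc23a1 encodes a sodium-coupled transporter of ascorbate, and Gad1 the enzyme that makes the neurotransmitter GABA from glutamate. Ripply1 encodes a corepressor that ends the action of T-box factors at somite boundaries, and Vrtn is known from pigs for its effect on the number of vertebrae. Nlrp4f belongs to the NLRP genes that mouse oocytes express.

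The promoters are shown because their content of CG pairs, the sites of DNA methylation in mammals, differed widely among the members. Of the 7 genes, 6 matched the RefSeq promoter table of build GRCm38.p6, which gives 250 bases before to 50 bases after each start. The 4 below run from the richest to the poorest in CG pairs, each 5′ to 3′ on the strand of the gene, with every CG pair in capitals. They are Gab1 (chr8:80880470-80880769, minus strand), Calml4 (chr9:62857854-62858153, plus strand), Nlrp4f (chr13:65205667-65205966, minus strand) and Ripply1 (chrX:139782304-139782603, minus strand).
Gab1: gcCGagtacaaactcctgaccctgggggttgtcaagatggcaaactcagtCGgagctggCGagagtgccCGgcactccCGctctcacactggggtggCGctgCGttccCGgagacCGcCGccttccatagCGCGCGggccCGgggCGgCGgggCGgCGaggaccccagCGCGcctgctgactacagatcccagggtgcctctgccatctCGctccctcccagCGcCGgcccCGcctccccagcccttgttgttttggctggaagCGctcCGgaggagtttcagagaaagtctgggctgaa
Calml4: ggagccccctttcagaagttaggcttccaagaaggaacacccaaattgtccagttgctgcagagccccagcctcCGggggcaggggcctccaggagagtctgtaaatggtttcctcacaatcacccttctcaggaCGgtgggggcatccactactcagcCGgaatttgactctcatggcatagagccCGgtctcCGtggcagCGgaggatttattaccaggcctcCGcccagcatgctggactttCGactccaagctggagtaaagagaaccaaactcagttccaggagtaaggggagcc
Nlrp4f: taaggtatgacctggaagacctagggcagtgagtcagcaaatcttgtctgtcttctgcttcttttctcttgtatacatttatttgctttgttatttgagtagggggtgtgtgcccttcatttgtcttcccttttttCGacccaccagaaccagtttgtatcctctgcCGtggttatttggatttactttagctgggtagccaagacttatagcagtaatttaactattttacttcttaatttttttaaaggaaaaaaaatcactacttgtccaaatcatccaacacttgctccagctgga
Ripply1: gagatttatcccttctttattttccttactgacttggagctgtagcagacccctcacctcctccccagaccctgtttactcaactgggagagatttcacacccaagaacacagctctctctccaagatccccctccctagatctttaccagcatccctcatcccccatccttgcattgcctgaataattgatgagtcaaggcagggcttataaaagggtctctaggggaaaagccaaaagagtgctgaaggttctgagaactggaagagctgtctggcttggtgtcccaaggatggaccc

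The Gab1 promoter held 26 CG pairs, more than 83.2% of the 27025 promoters in the table, and the Gad1 promoter (chr2:70561879-70562178, plus strand) held 21, more than 75% of them. Over all promoters the median was 7 CG pairs, with quartiles of 3 and 20. Calml4 with 8 pairs and Vrtn (chr12:84640769-84641068, plus strand) with 7 lay near that median. Nlrp4f with 2 pairs and Ripply1 with 0 lay below the lower quartile. The 6 promoters therefore covered most of the range and shared no CG content. A search of both strands for short motifs found GGGCGG in the promoters of Gab1, Calml4 and Gad1, a motif held by 35.9% of all promoters. TATAAA was found in the promoters of Ripply1 and Gad1 and in 14.2% of all promoters. No copy was present in the 6 windows of CACGTG, which 7.24% of all promoters held and which is a form of CANNTG, or of TGACGTCA, held by 1.85%. Nor was there a copy of AAGGTCA, held by 4.65%, of ATGCNAAT, held by 3.2%, or of TGCCGC, held by 11.6%. The common CANNTG, held by 72.1% of all promoters, was present in 5 of the 6 windows and in no copy in that of Gab1.

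In the panel, cells with active S12N:SUV2 were set against cells with its dead version. Gab1 had 273, 270 and 275 CPM (read counts scaled to a common library size after TMM adjustment, not for gene length) in the active line, against 73.2, 69.8 and 67.3 CPM in the dead line. Calml4 had 6.11, 5.72 and 5.33 CPM in the active line, against 1.16, 1.52 and 1.62 CPM in the dead line. Nlrp4f had 37.2, 38.6 and 42.4 CPM in the active line, against 11.6, 11.1 and 10.9 CPM in the dead line. For these 3 genes the libraries of each line lay close together and far from those of the other line, with folds of 3.89, 3.98 and 3.52. On the log2 scale the differences were 1.96 ± 0.06 for Gab1, 1.99 ± 0.17 for Calml4 and 1.81 ± 0.12 for Nlrp4f (standard error of the edgeR fit, n = 3 a group).

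Slc23a1, the ascorbate transporter, had 6.72, 7.24 and 7.89 CPM in the active line, against 2.16, 2.10 and 2.18 CPM in the dead line, a log2 difference of 1.76 ± 0.17. Vrtn had 4.24, 4.31 and 3.39 CPM in the active line, against 2.16, 1.92 and 2.25 CPM in the dead line, a log2 difference of 0.92 ± 0.19. Ripply1 had 6.89, 8.10 and 6.01 CPM in the active line, against 5.03, 4.75 and 4.72 CPM in the dead line, a log2 difference of 0.54 ± 0.18. In each of these genes the lowest active library still stood above the highest dead library, by a small margin for Ripply1. Gad1 differed from the rest: it had 4.32, 5.06 and 5.42 CPM in the active line, against 5.40, 4.61 and 4.31 CPM in the dead line, and the groups overlapped (log2 difference 0.05 ± 0.15).

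In all, 6 of the 7 members had every active library above every dead one, a pattern that 23% of the 16230 genes tested also had, and 9.82% of genes were called higher. The members' median log2 difference was 1.76, and 4 members were at least 2-fold higher, and 0.739% of genes were both called and at least 2-fold higher. By the size of the difference Calml4 ranked 8, Gab1 9, Nlrp4f 18 and Slc23a1 22 of 16230 genes, while Vrtn ranked 194, Ripply1 709 and Gad1 6769. Nothing is read from these shares, since values of this kind chose the members.

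**Figure D1:**
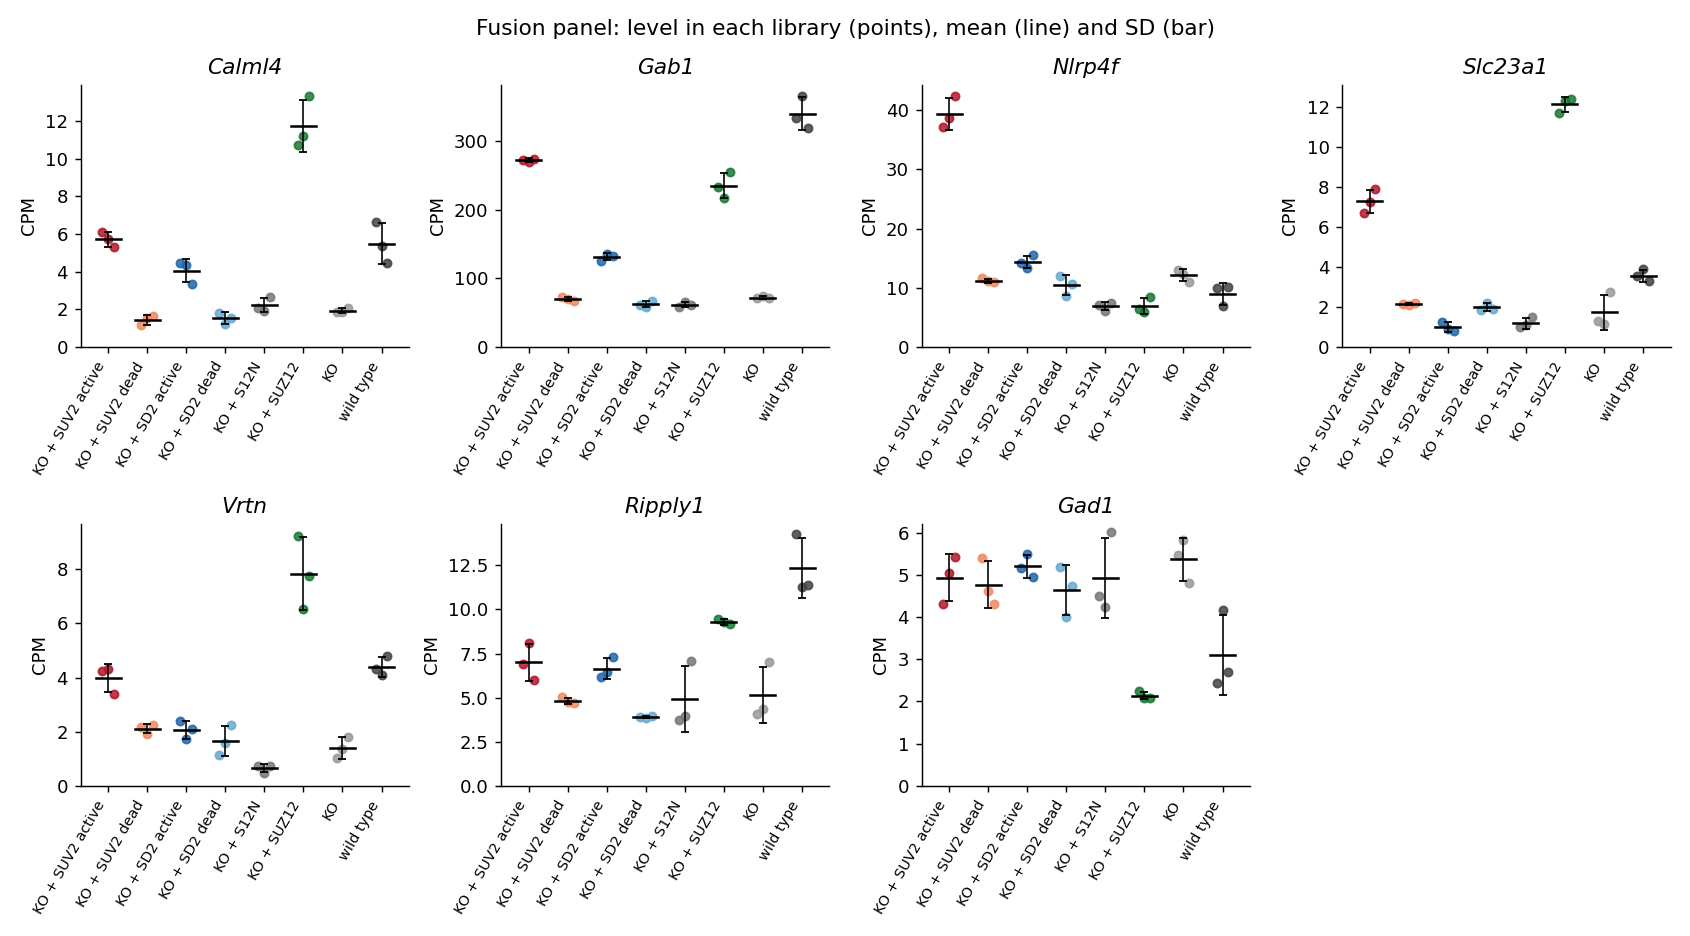
Level of each member in every library of the panel, in CPM, 1 plot per gene and 1 column per group; points are libraries, lines are group means and bars are SDs (n = 3). Gab1 sat between 270 and 275 CPM in the S12N:SUV2 line, against 67.3 to 73.2 CPM in its dead version, while the Gad1 points of these 2 lines overlapped.

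Against wild-type cells, the S12N:SUV2 line did not stand in 1 direction. Nlrp4f averaged 39.4 ± 2.67 CPM in the S12N:SUV2 line and 8.96 ± 1.81 CPM in wild-type cells (SD, n = 3 each), and it was higher in this line than in any other group of the panel, with no overlap. Slc23a1 averaged 7.28 ± 0.587 CPM in the S12N:SUV2 line and 3.56 ± 0.304 CPM in wild-type cells. Gab1 averaged 273 ± 2.15 CPM in the S12N:SUV2 line and 340 ± 24.2 CPM in wild-type cells, and Ripply1 averaged 7 ± 1.05 CPM in the S12N:SUV2 line and 12.3 ± 1.76 CPM in wild-type cells. Nlrp4f and Slc23a1 were thus above the wild-type level and Gab1 and Ripply1 below it, in every library. Calml4 averaged 5.72 ± 0.392 CPM in the S12N:SUV2 line and 5.48 ± 1.09 CPM in wild-type cells, and Vrtn averaged 3.98 ± 0.510 CPM in the S12N:SUV2 line and 4.40 ± 0.368 CPM in wild-type cells, and for both genes the libraries overlapped. Gad1 averaged 4.94 ± 0.564 CPM in the S12N:SUV2 line and 3.10 ± 0.946 CPM in wild-type cells, with every S12N:SUV2 library above.

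Ordering the panel groups by their means placed knockout cells with SUZ12 put back first for Calml4 (11.7 ± 1.35 CPM), Slc23a1 (12.1 ± 0.364 CPM) and Vrtn (7.84 ± 1.35 CPM), each clear of the next group. Wild-type cells came first for Gab1 and Ripply1, also clear of the next group. The lowest groups were S12NSUV2dead for Calml4 (1.43 ± 0.246 CPM), S12N for Gab1 (61.6 ± 3.45 CPM) and Vrtn (0.652 ± 0.161 CPM), S12N:SD2 for Slc23a1 (0.983 ± 0.247 CPM) and S12NSD2dead for Ripply1 (3.88 ± 0.0411 CPM). Gad1 had knockout cells first (5.37 ± 0.507 CPM), but the 6 highest groups ran down to 4.64 ± 0.595 CPM with each overlapping the next, and only SUZ12-returned cells (2.14 ± 0.0908 CPM) were clear of the group above, wild-type cells (3.10 ± 0.946 CPM).

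The dead fusion itself was not equal to plain S12N for all members. Vrtn averaged 2.11 ± 0.170 CPM in the S12NSUV2dead line and 0.652 ± 0.161 CPM in the S12N line, a log2 difference of 1.67 ± 0.26. Slc23a1 averaged 2.15 ± 0.0384 CPM in the S12NSUV2dead line and 1.19 ± 0.272 CPM in the S12N line, and Nlrp4f averaged 11.2 ± 0.391 CPM in the S12NSUV2dead line and 6.90 ± 0.684 CPM in the S12N line. These 3 genes were higher with the dead fusion in every library. So was Gab1, by a small margin, with 70.1 ± 2.96 CPM in the S12NSUV2dead line and 61.6 ± 3.45 CPM in the S12N line. Calml4 was lower in every library, with 1.43 ± 0.246 CPM in the S12NSUV2dead line and 2.22 ± 0.388 CPM in the S12N line. Over the 7 members the median log2 difference of the dead fusion against S12N was 0.19, against 2.15 for the active fusion against S12N.

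In the RBBP5 dataset with S12N:SUV2, RS cells carrying the active fusion were set against RS cells without a construct, and no dead fusion was part of this dataset. In DMSO, Slc23a1 had 7.44, 7.13 and 6.58 CPM in RS cells with S12N:SUV2, against 1.28, 1.58 and 1.35 CPM in RS cells. Vrtn had 4.87, 4.66 and 4.05 CPM with the fusion, against 1.01, 0.835 and 1.04 CPM without it. Ripply1 had 5.03, 5.08 and 5.48 CPM with the fusion, against 1.01, 1.49 and 1.04 CPM without it. All 3 genes were far apart between the lines, with log2 differences of 2.31 ± 0.15, 2.23 ± 0.18 and 2.12 ± 0.16.

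Gad1, which did not differ between the panel lines, had 8.25, 8.07 and 8.97 CPM in RS cells with S12N:SUV2, against 1.97, 1.89 and 1.98 CPM in RS cells, a log2 difference of 2.11 ± 0.13. Gab1 had 132, 131 and 131 CPM with the fusion, against 70.7, 65.8 and 68.7 CPM without it, a log2 difference of 0.94 ± 0.03. Nlrp4f had 32.3, 28.9 and 27.4 CPM with the fusion, against 19.4, 20.9 and 22.5 CPM without it, a log2 difference of 0.50 ± 0.07. Each of these genes had all 3 fusion libraries above all 3 RS libraries, with a narrow gap for Nlrp4f. Calml4 was low here: it had 28, 34 and 34 reads with the fusion, against 24, 28 and 16 reads in RS cells, and 1.63 ± 0.142 CPM with the fusion and 1.05 ± 0.203 CPM without it.

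All 7 members had every fusion library above every RS library, which 26% of the 15757 genes tested also had, and 23.3% of genes were called higher. Nothing is read from these shares, since values of this kind may have chosen the members. The members' median log2 difference was 2.11. Slc23a1 ranked 6, Vrtn 9, Ripply1 15 and Gad1 16, while Gab1 ranked 238, Calml4 613 and Nlrp4f 941. The contrast and any mark that chose the members are not stated. Set against a 2-fold mark, Calml4, Gab1 and Nlrp4f were past it in the panel contrast alone. Vrtn, Ripply1 and Gad1 were past it in the RBBP5 contrast alone, and Slc23a1 in both. Gab1 in the RBBP5 contrast (1.92-fold) and Vrtn in the panel contrast (1.89-fold) lay just under it. Over all genes, 120 were called and at least 2-fold higher in the panel contrast and 175, or 1.11%, in the RBBP5 contrast. The overlap was 29 genes, which is 24.2% of the panel genes and 16.6% of the RBBP5 genes. The comparisons had unlike controls, a dead fusion in 1 and no construct in the other. In the panel, set against knockout cells without a construct, the active line differed by 2.06 ± 0.21 for Slc23a1, 1.92 ± 0.07 for Gab1, 1.70 ± 0.13 for Nlrp4f, 1.57 ± 0.20 for Calml4 and 1.52 ± 0.24 for Vrtn on the log2 scale, while Ripply1 (0.45 ± 0.20) and Gad1 (-0.12 ± 0.17) had overlapping libraries.

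**Figure D2:**
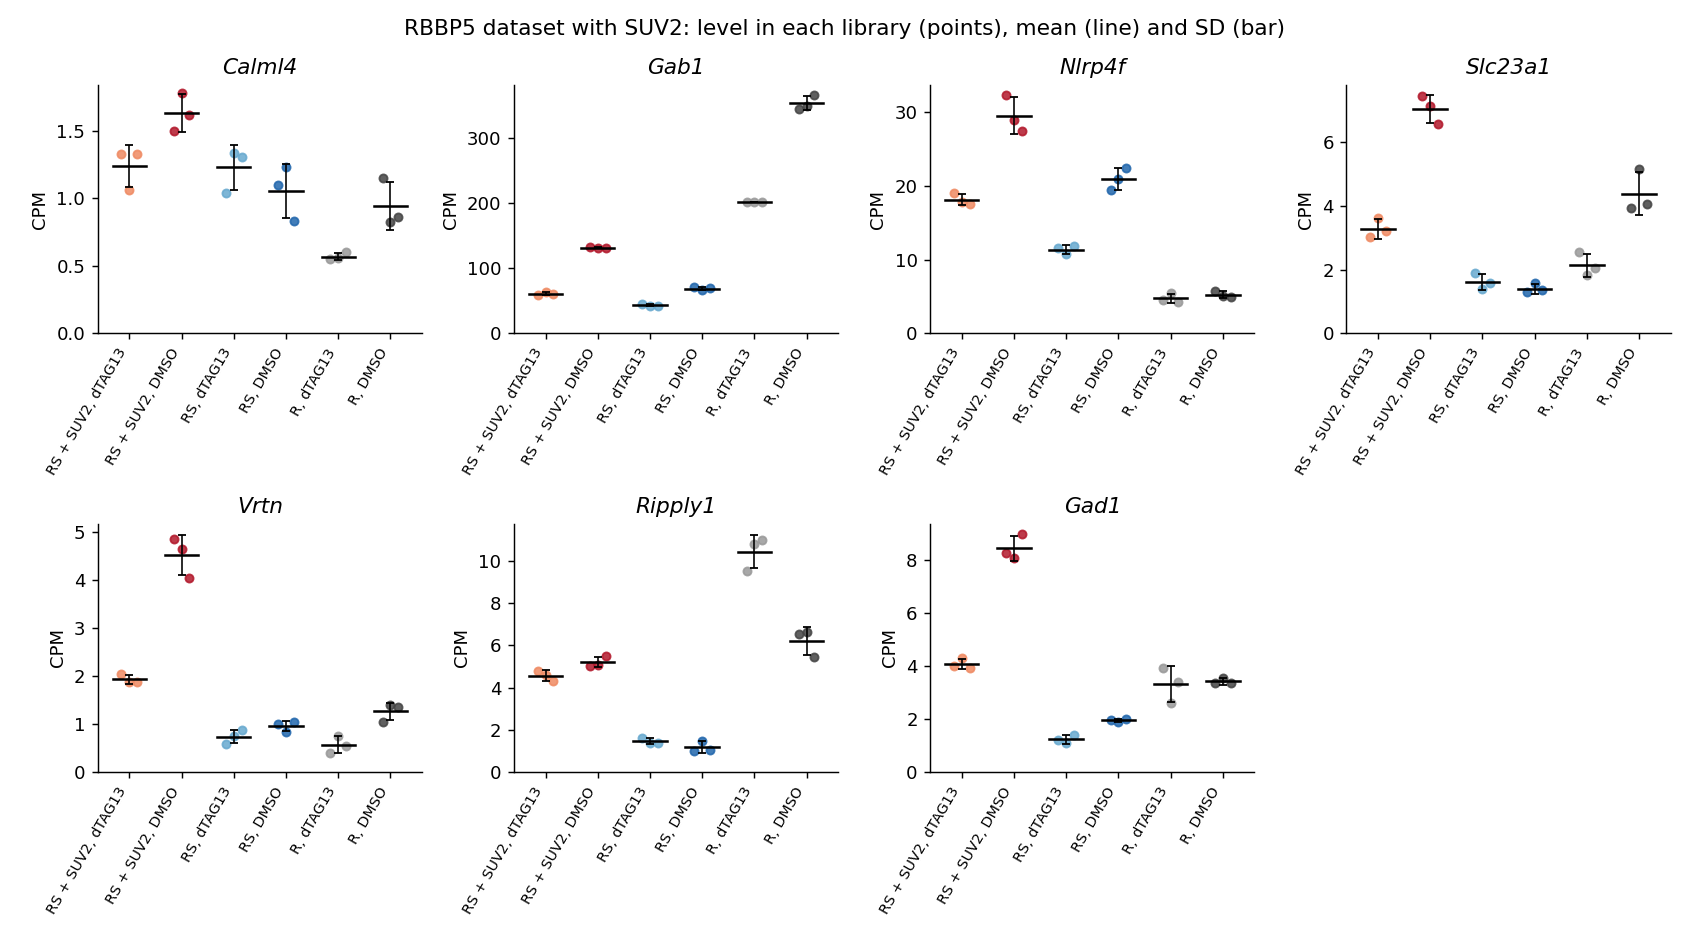
Level of each member in every library of the RBBP5 dataset with S12N:SUV2, in CPM, 1 plot per gene and 1 column per line and treatment; points are libraries, lines are group means and bars are SDs (n = 3). In DMSO, Slc23a1 sat between 6.58 and 7.44 CPM in RS cells with the fusion, against 1.28 to 1.58 CPM in RS cells.

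The lines were also set against R cells, which keep their SUZ12. In DMSO, Nlrp4f averaged 29.5 ± 2.52 CPM in RS cells with S12N:SUV2 and 5.24 ± 0.438 CPM in R cells, and Vrtn averaged 4.53 ± 0.426 CPM in RS cells with S12N:SUV2 and 1.26 ± 0.189 CPM in R cells. Gad1 averaged 8.43 ± 0.474 CPM in RS cells with S12N:SUV2 and 3.42 ± 0.124 CPM in R cells, and Slc23a1 averaged 7.05 ± 0.436 CPM in RS cells with S12N:SUV2 and 4.38 ± 0.674 CPM in R cells. These 4 genes, and Calml4 at its low level, stood above the R level in every library. Gab1 stood below it in every library, with 131 ± 0.469 CPM in RS cells with S12N:SUV2 and 353 ± 10.5 CPM in R cells. Ripply1 overlapped, with 5.20 ± 0.247 CPM in RS cells with S12N:SUV2 and 6.21 ± 0.659 CPM in R cells.

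Loss of SUZ12 in the same dataset, RS against R cells in DMSO, gave Gab1 68.4 ± 2.46 CPM in RS cells and 353 ± 10.5 CPM in R cells, and Ripply1 1.18 ± 0.271 CPM in RS cells and 6.21 ± 0.659 CPM in R cells. Nlrp4f went the other way, with 20.9 ± 1.54 CPM in RS cells and 5.24 ± 0.438 CPM in R cells. These are described without a test because the RS libraries are also the comparison group of the fusion.

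The degrader was then compared with DMSO inside each line. With dTAG13 every member had all 3 fusion libraries below all 3 in DMSO, with a median log2 difference of -1.05, a pattern that 29.9% of the 15757 genes tested also had. The members were chosen as high with the fusion, and these DMSO libraries may have entered that choice, so nothing is read from this count. Vrtn averaged 1.93 ± 0.0959 CPM in dTAG13 and 4.53 ± 0.426 CPM in DMSO, Gab1 averaged 60.8 ± 1.82 CPM in dTAG13 and 131 ± 0.469 CPM in DMSO, and Slc23a1 averaged 3.28 ± 0.307 CPM in dTAG13 and 7.05 ± 0.436 CPM in DMSO. Gad1 averaged 4.07 ± 0.192 CPM in dTAG13 and 8.43 ± 0.474 CPM in DMSO. All 4 differed by more than 2-fold, and Ripply1 differed least, with 4.56 ± 0.252 CPM in dTAG13 and 5.20 ± 0.247 CPM in DMSO. RS cells without the fusion had a median log2 difference of -0.36 between dTAG13 and DMSO, with Gab1, Nlrp4f and Gad1 below in every library, beside 27.9% of genes, and the other 4 overlapping. The response of the fusion line less that of RS cells was -1.29 ± 0.24 for Slc23a1, -0.86 ± 0.30 for Vrtn, -0.48 ± 0.24 for Ripply1, -0.44 ± 0.05 for Gab1, -0.39 ± 0.22 for Gad1, -0.61 ± 0.30 for Calml4 and 0.17 ± 0.10 for Nlrp4f on the log2 scale. Each value takes in the DMSO libraries of both lines, where choosing members as high with the fusion favours a negative sign. Nothing is therefore read from these values. With dTAG13 present in both lines, 6 of 7 members had every fusion library above every RS library, beside 28.4% of genes, with Calml4 overlapping and a median log2 difference of 1.02. Since the members were chosen as high with this fusion, nothing is read from this count either.

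In R cells, which hold no fusion, the response to dTAG13 could be tested. Slc23a1 had 2.54, 1.83 and 2.05 CPM in dTAG13, against 3.94, 5.16 and 4.05 CPM in DMSO, and fell by 1.03 ± 0.15 on the log2 scale (edgeR quasi-likelihood test, adjusted p = 1.02e-06). Gab1 had 201, 202 and 201 CPM in dTAG13, against 345, 349 and 365 CPM in DMSO, and fell by 0.81 ± 0.03 (adjusted p = 3.34e-21). Ripply1 moved the opposite way, with 9.52, 10.8 and 11 CPM in dTAG13, against 6.53, 6.65 and 5.46 CPM in DMSO, and rose by 0.74 ± 0.10 (adjusted p = 1.52e-07). No library overlapped between the treatments in these 3 genes. Vrtn also fell (8, 15 and 11 reads in dTAG13, against 21, 27 and 25 reads in DMSO; adjusted p = 0.00049). Calml4 fell at 11, 11 and 12 reads in dTAG13, against 23, 16 and 16 reads in DMSO (adjusted p = 0.0352), a call lost with DESeq2 (adjusted p = 0.123), without a filter on low counts (adjusted p = 0.0775) and without the first DMSO library or any 1 dTAG13 library (adjusted p = 0.0578 to 0.186). Nlrp4f and Gad1 overlapped. In all, 1 member was called higher and 4 lower, beside 25.4% and 26.2% of the 15757 genes tested.

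**Figure D3:**
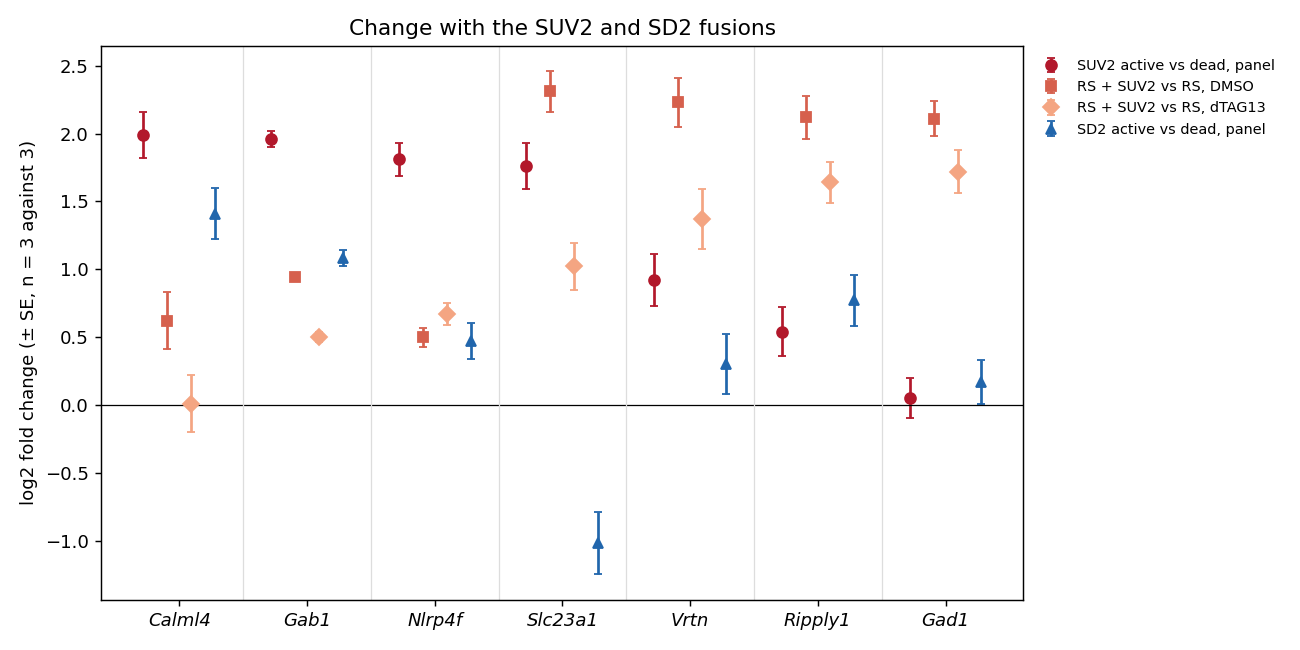
Log2 difference of each member (y axis; bars are standard errors, n = 3 libraries a group) for S12N:SUV2 against its dead version, RS cells with S12N:SUV2 against RS cells in DMSO and in dTAG13, and S12N:SD2 against its dead version. The 7 members do not keep 1 order: Gad1 lay at 0.05 for S12N:SUV2 against its dead version in the panel and at 2.11 for RS cells with S12N:SUV2 against RS cells in DMSO.

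The lines were checked at the RNA level. Suz12 averaged 55.9 ± 10.6 CPM in the panel knockout cells and 294 ± 24.2 CPM in wild-type cells, and 32 ± 1.22 CPM in RS cells and 384 ± 4.42 CPM in R cells in DMSO. Suz12 averaged 181 ± 15.1 CPM in the S12N:SUV2 line and 237 ± 27.9 CPM in its dead version, where reads of the construct and of the locus cannot be told apart. Suv39h2 averaged 107 ± 2.38 CPM in the S12N:SUV2 line and 130 ± 9.10 CPM in its dead version, while the other 6 panel groups averaged 33.9 to 43.7 CPM. In the RBBP5 dataset in DMSO it averaged 52.8 ± 1.85 CPM in RS cells with S12N:SUV2 and 36.5 ± 3.54 CPM in RS cells. R cells, which hold no fusion, averaged 47.3 ± 0.899 CPM in DMSO. In dTAG13 it averaged 48.5 ± 0.829 CPM in RS cells with S12N:SUV2 and 48.6 ± 0.911 CPM in R cells. The fusion line of this dataset was thus above RS cells but close to R cells. Depth ran from 8.80 to 29.97 M reads a library in the panel and from 18.59 to 22.26 M reads in the RBBP5 dataset with S12N:SUV2. The panel's wild-type and knockout libraries were its shallowest and had column names of another form. For comparisons of wild-type or knockout cells with any construct line, SUZ12 put back among them, the library set and the construct therefore cannot be told apart.

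Markers of other cell types moved with the same contrasts. The summed level of 12 primitive endoderm markers was 536 to 602 CPM in the S12N:SUV2 line, against 1585 to 2087 CPM in its dead version, and 411 to 453 CPM in RS cells with S12N:SUV2, against 1623 to 1771 CPM in RS cells in DMSO. None of the 12 was at 0 in these groups. In the panel 10 markers of the 2-cell state summed to 0.245 to 0.436 CPM in the S12N:SUV2 line, with 3 of them at 0, against 12.4 to 14.8 CPM in its dead version, with none at 0. In the same lines the 10 fibroblast markers summed to 19.3 to 21.9 CPM in the S12N:SUV2 line, with 2 at 0, against 33.5 to 41.6 CPM in its dead version, with 1 at 0. Oocyte and germline markers, 12 in number, summed to 116 to 123 CPM in the S12N:SUV2 line, with 2 at 0, against 183 to 191 CPM in its dead version, so Nlrp4f was higher where these were lower. The 12 somite markers summed to 81.7 to 92.2 CPM in the S12N:SUV2 line, against 76.0 to 79.7 CPM in its dead version, and the 12 neural markers to 132 to 138 CPM in the S12N:SUV2 line, against 172 to 177 CPM in its dead version. The 12 pluripotency markers were all present in every group, and summed to 4898 to 4978 CPM in the S12N:SUV2 line, against 5191 to 5263 CPM in its dead version. The part of these shifts in the members' values was not tested, and in bulk RNA fewer cells of a type and less RNA per cell cannot be told apart.

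S12N:SD2, the other fusion of the panel, was set against its own dead version, with tests. Gab1 had 126, 136 and 133 CPM in the S12N:SD2 line, against 61, 59 and 67 CPM in its dead version, and rose by 1.08 ± 0.06 on the log2 scale (adjusted p = 8.63e-12). Calml4 had 4.45, 4.33 and 3.35 CPM in the S12N:SD2 line, against 1.83, 1.21 and 1.56 CPM in its dead version, and rose by 1.41 ± 0.19 (adjusted p = 8.97e-06). Ripply1 had 6.16, 6.45 and 7.30 CPM in the S12N:SD2 line, against 3.88, 3.84 and 3.93 CPM in its dead version, and rose by 0.77 ± 0.19 (adjusted p = 0.0061). In these genes all libraries of the active line lay above those of the dead line. Slc23a1 went down: it had 1.26, 0.909 and 0.782 CPM in the S12N:SD2 line, against 1.83, 2.21 and 1.92 CPM in its dead version, and fell by 1.02 ± 0.23 (adjusted p = 0.00285). Nlrp4f had 14.1, 13.4 and 15.5 CPM in the S12N:SD2 line, against 12, 8.65 and 10.6 CPM in its dead version (log2 difference 0.47 ± 0.13, adjusted p = 0.0132), a call lost without the second S12NSD2dead library (adjusted p = 0.103) or the third S12N:SD2 library (adjusted p = 0.0683). Vrtn and Gad1 overlapped (adjusted p = 0.372 and 0.479).

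So 4 members were called higher and 1 lower with S12N:SD2, beside 8% and 10% of the 16230 genes, with a median of 0.47 for the members and -0.01 for all genes. Set beside each other with no test, the S12N:SUV2 difference less the S12N:SD2 difference was 2.78 ± 0.28 for Slc23a1, 1.34 ± 0.18 for Nlrp4f, 0.88 ± 0.09 for Gab1, 0.62 ± 0.29 for Vrtn and 0.58 ± 0.26 for Calml4 on the log2 scale. It was -0.23 ± 0.26 for Ripply1 and -0.13 ± 0.22 for Gad1. Slc23a1 was at 1.76 for S12N:SUV2 and at -1.02 for S12N:SD2, and Ripply1 at 0.54 and 0.77. Choosing members as high with S12N:SUV2 favours positive differences between the fusions, so nothing is read from these values. The primitive endoderm markers summed to 659 to 774 CPM in the S12N:SD2 line, against 770 to 870 CPM in its dead version. The dead S12N:SD2 line also differed from plain S12N. If the S12N cells were the comparison group that chose the members, the choice favours a rise here. Vrtn had 1.14, 1.59 and 2.23 CPM in the S12NSD2dead line, against 0.744, 0.466 and 0.747 CPM in the S12N line, and rose by 1.34 ± 0.27 (adjusted p = 0.00173). Nlrp4f rose by 0.58 ± 0.14 (adjusted p = 0.00671) and Slc23a1 by 0.75 ± 0.22 (adjusted p = 0.0278), and both of these calls were lost when only the compared groups were fitted (adjusted p = 0.0614 and 0.107). These 3 members were called higher and none lower, beside 6.97% and 6.11% of genes.

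Loss of SUZ12 in the panel, knockout against wild-type cells, asks how the members depend on PRC2 itself. The contrast that chose the members is not stated, and these knockout cells may have been its comparison group. In that case the choice favours low values in knockout cells, and so a fall here. Gab1 had 70.8, 74.3 and 71.6 CPM in knockout cells, against 334, 367 and 320 CPM in wild-type cells, and was 4.71-fold lower (adjusted p = 1.81e-18). Vrtn had 1.02, 1.36 and 1.80 CPM in knockout cells, against 4.30, 4.08 and 4.80 CPM in wild-type cells, and fell by 1.65 ± 0.26 on the log2 scale (adjusted p = 1.2e-05). Calml4 had 1.86, 1.84 and 2.08 CPM in knockout cells, against 6.62, 5.38 and 4.45 CPM in wild-type cells, and fell by 1.51 ± 0.22 (adjusted p = 3.08e-06). Ripply1 and Slc23a1 also fell, by 1.26 ± 0.21 (adjusted p = 1.88e-05) and 1.04 ± 0.25 (adjusted p = 0.00115). Those 5 genes had every knockout library below every wild-type library.

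The 2 remaining members rose. Gad1 had 5.48, 5.82 and 4.82 CPM in knockout cells, against 2.43, 4.18 and 2.69 CPM in wild-type cells, and rose by 0.78 ± 0.20 (adjusted p = 0.00269). Nlrp4f had 13, 12.4 and 11 CPM in knockout cells, against 9.93, 6.87 and 10.1 CPM in wild-type cells, and its rise of 0.45 ± 0.16 (adjusted p = 0.0236) was lost without the second wild-type library (adjusted p = 0.184) or the first or the second knockout library (adjusted p = 0.0799 and 0.0568). The counts of 2 higher and 5 lower stand beside 23.8% and 23.2% of genes, with a median of -1.26 for the members and -0.02 for all genes. Primitive endoderm markers summed to 1105 to 2058 CPM in knockout cells, against 236 to 285 CPM in wild-type cells, and their part was not tested.

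Cells with SUZ12 put back were set against the same knockout libraries, which the 2 comparisons therefore share. If these knockout cells were the comparison group that chose the members, the choice favours a rise here. Slc23a1 had 11.7, 12.3 and 12.4 CPM in SUZ12-returned cells, against 1.3, 1.16 and 2.74 CPM in knockout cells, and rose by 2.80 ± 0.20 (adjusted p = 1.28e-11). Calml4 had 10.7, 11.2 and 13.3 CPM in SUZ12-returned cells, against 1.86, 1.84 and 2.08 CPM in knockout cells, and rose by 2.60 ± 0.19 (adjusted p = 1.76e-11). Vrtn had 9.25, 6.54 and 7.74 CPM in SUZ12-returned cells, against 1.02, 1.36 and 1.80 CPM in knockout cells, and rose by 2.49 ± 0.23 (adjusted p = 1.73e-09). For each of these 3 genes the returned level also stood above every wild-type library. Gab1 rose to 235 ± 18.5 CPM in SUZ12-returned cells, against 72.2 ± 1.83 CPM in knockout cells (adjusted p = 1.14e-16), and Ripply1 to 9.29 ± 0.156 CPM in SUZ12-returned cells, against 5.15 ± 1.61 CPM in knockout cells (adjusted p = 0.000949). Gad1 fell by 1.33 ± 0.19 (adjusted p = 2.01e-06) and Nlrp4f by 0.81 ± 0.15 (adjusted p = 6.17e-05). Counts of 5 higher and 2 lower stand beside 24.4% and 24.2% of genes, with a median of 1.70 for the members and 0.02 for all genes. Primitive endoderm markers summed to 284 to 332 CPM in SUZ12-returned cells, against 1105 to 2058 CPM in knockout cells, and oocyte and germline markers to 76.2 to 81.2 CPM, against 175 to 221 CPM; their part in these results was not tested.

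**Figure D4:**
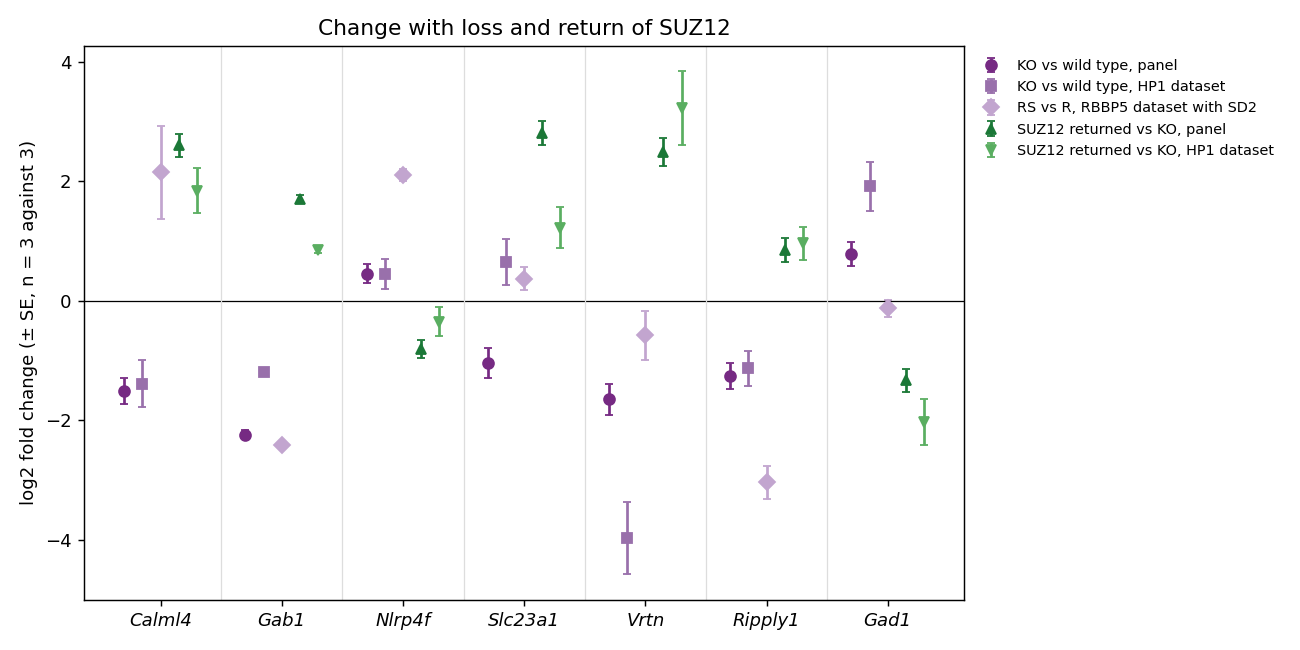
Log2 difference of each member (y axis; bars are standard errors, n = 3 libraries a group) on loss of SUZ12 in the panel, the HP1 dataset and the RBBP5 dataset with S12N:SD2, and on its return in the first 2 of these. In the panel and the HP1 dataset Gab1 lay at -2.24 and -1.19 on loss and at 1.70 and 0.84 on return, and Gad1 at 0.78 and 1.91 on loss and at -1.33 and -2.03 on return.

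The HP1 dataset measured the same loss and return in other libraries. Gab1 had 252, 232 and 225 CPM in knockout cells, against 560, 537 and 520 CPM in wild-type cells, and fell by 1.19 ± 0.05 (adjusted p = 2.66e-25). Vrtn was at 1, 7 and 1 reads in knockout cells, against 49, 53 and 29 reads in wild-type cells, and fell (adjusted p = 5.63e-07). Gad1 had 5.76, 4.46 and 3.77 CPM in knockout cells, against 1.42, 0.873 and 1.43 CPM in wild-type cells, and rose by 1.91 ± 0.41 (adjusted p = 0.000152). These groups did not overlap, and Calml4 (-1.39 ± 0.39, adjusted p = 0.00342) and Ripply1 (-1.13 ± 0.29, adjusted p = 0.00124) were also lower in every knockout library. Slc23a1 had 2.39, 2.34 and 4.66 CPM in knockout cells, against 2.25, 1.36 and 2.07 CPM in wild-type cells (log2 difference 0.65 ± 0.39, adjusted p = 0.183). Nlrp4f did not pass either (0.44 ± 0.25, adjusted p = 0.155). The counts were 1 higher and 4 lower, beside 22.2% and 19.6% of the 14026 genes tested. The sum of primitive endoderm markers was 1436 to 1479 CPM in knockout cells, against 382 to 399 CPM in wild-type cells, and their part was not tested.

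With full-length SUZ12 in that dataset, Calml4 rose by 1.84 ± 0.38 (adjusted p = 0.000164), with 7.53, 5.12 and 4.02 CPM in full-length SUZ12 cells, against 1.27, 1.65 and 1.79 CPM in knockout cells. Vrtn rose to 65, 43 and 9 reads in full-length SUZ12 cells, against 1, 7 and 1 reads in knockout cells (adjusted p = 6e-05). Gab1 rose by 0.84 ± 0.05 (adjusted p = 1.6e-19) and Ripply1 by 0.96 ± 0.28 (adjusted p = 0.00912). Slc23a1 rose by 1.22 ± 0.34 (adjusted p = 0.0058), a call lost without the second knockout library (adjusted p = 0.0642) or the second full-length SUZ12 library (adjusted p = 0.0521). Gad1 fell by 2.03 ± 0.39 (adjusted p = 6.76e-05). Counts of 5 higher and 1 lower stand beside 12.3% and 14.1% of genes. The sum of primitive endoderm markers was 843 to 898 CPM in full-length SUZ12 cells, against 1436 to 1479 CPM in knockout cells, and their part was not tested here either.

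S12N without a fusion partner raised no member over knockout cells in either dataset. In the panel, either group may have been the comparison group that chose the members, which could favour either sign. Nlrp4f fell in both: it had 7.02, 6.16 and 7.51 CPM in S12N cells, against 13, 12.4 and 11 CPM in knockout cells of the panel (log2 difference -0.81 ± 0.15, adjusted p = 0.00232). In the HP1 dataset it had 3.92, 3.20 and 2.47 CPM in S12N cells, against 8.44, 6.27 and 6.82 CPM in knockout cells (-1.13 ± 0.25, adjusted p = 0.00696), a call lost without the first knockout library (adjusted p = 0.0603) or the third S12N library (adjusted p = 0.0619). Gab1 had 170, 167 and 169 CPM in S12N cells, against 252, 232 and 225 CPM in knockout cells of the HP1 dataset, and fell by 0.49 ± 0.05 (adjusted p = 2.89e-10). In the panel the Gab1 difference was -0.23 ± 0.07 (adjusted p = 0.0545) and passed with DESeq2 (adjusted p = 0.0299). The panel count was 0 higher and 1 lower, beside 1.9% and 1.92% of genes, and the HP1 dataset count was 0 higher and 2 lower, beside 0.77% and 1.12%.

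Fusion of S12N to the HP1a chromodomain raised 2 members over plain S12N, and these comparisons share the S12N libraries with those just given. Gab1 had 233, 248 and 251 CPM in the HP1 fusion line, against 170, 167 and 169 CPM in the S12N line, and rose by 0.53 ± 0.05 (adjusted p = 1.26e-11). Nlrp4f had 5.93, 7.04 and 7.12 CPM in the HP1 fusion line, against 3.92, 3.20 and 2.47 CPM in the S12N line, and rose by 1.05 ± 0.25 (adjusted p = 0.00447). The libraries of both genes were apart. For the other 5 members the libraries overlapped, and their log2 differences ran from -0.82 ± 0.75 for Vrtn, at 1 to 10 reads a library, to 0.37 ± 0.32 for Ripply1. The 2 higher and 0 lower calls stand beside 4.26% and 2.72% of genes. Primitive endoderm markers summed to 2046 to 3346 CPM in the HP1 fusion line, against 1549 to 1719 CPM in the S12N line, so in this dataset the 2 called members were higher where these markers were higher.

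The RBBP5 dataset with S12N:SD2 tested the loss of SUZ12 and the degrader in R and RS cells a second time, in libraries whose labels do not state separate cultures. In DMSO, Ripply1 had 2.16, 1.82 and 2.36 CPM in RS cells, against 17.3, 18.3 and 16.8 CPM in R cells, and fell by 3.04 ± 0.27 (adjusted p = 2.72e-08). Gab1 had 86.0, 86.3 and 80.2 CPM in RS cells, against 467, 426 and 448 CPM in R cells, and fell by 2.41 ± 0.05 (adjusted p = 5.56e-16). Nlrp4f had 11.6, 12.3 and 12.7 CPM in RS cells, against 2.87, 2.43 and 3.24 CPM in R cells, and rose by 2.10 ± 0.10 (adjusted p = 1.37e-11). All 3 were clear of overlap. Calml4 was at 3, 7 and 11 reads in RS cells, against 2, 1 and 1 reads in R cells, and its call as higher (adjusted p = 0.0199) was lost without the third RS library (adjusted p = 0.106) or the second or the third R library (adjusted p = 0.0664 and 0.0568). Slc23a1, Vrtn and Gad1 overlapped. The counts of 2 higher and 2 lower stand beside 31.8% and 27.2% of the 15211 genes tested. Primitive endoderm markers summed to 5858 to 6157 CPM in RS cells, against 221 to 239 CPM in R cells.

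S12N:SD2 was also set against RS cells in DMSO. Slc23a1 had 3.53, 2.81 and 2.67 CPM in RS cells with S12N:SD2, against 6.31, 4.80 and 4.31 CPM in RS cells, and fell by 0.77 ± 0.20 (adjusted p = 0.00612). Gab1 had 96.3, 101 and 99.9 CPM in RS cells with S12N:SD2, against 86.0, 86.3 and 80.2 CPM in RS cells, and rose by 0.23 ± 0.05 (adjusted p = 0.00244). Both groups were apart in each gene. The counts of 1 higher and 1 lower stand beside 13% and 14.9% of genes, and 4 members were called when only the compared groups were fitted. Slc23a1 therefore fell with S12N:SD2 against a dead fusion in the panel and against RS cells here.

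The degrader lowered Gab1 in all 3 lines of this dataset: it averaged 198 ± 6.51 CPM in dTAG-13 and 447 ± 20.5 CPM in DMSO in R cells (adjusted p = 7.49e-11), 40.6 ± 0.318 CPM in dTAG-13 and 84.2 ± 3.41 CPM in DMSO in RS cells (adjusted p = 4.85e-10), and 41.8 ± 1.88 CPM in dTAG-13 and 99.0 ± 2.43 CPM in DMSO in RS cells with S12N:SD2 (adjusted p = 5.81e-11). The Gab1 response of RS cells less that of R cells was 0.12 ± 0.07 (adjusted p = 0.321). For Gad1 and Nlrp4f the response of RS cells differed from that of R cells. Gad1 had 0.922, 1.24 and 1.14 CPM in dTAG-13, against 2.81, 2.92 and 3.33 CPM in DMSO in RS cells, while R cells had 3.38, 2.88 and 3.11 CPM in dTAG-13, against 3.18, 3.64 and 3.11 CPM in DMSO. The RS response less the R response was -1.37 ± 0.23 for Gad1 (adjusted p = 0.000869) and -1.15 ± 0.16 for Nlrp4f (adjusted p = 0.000183), with 1 member called higher and 2 lower in this test, beside 5.19% and 6.92% of genes. Slc23a1 had the reverse pattern, falling by 1.29 ± 0.25 in R cells (adjusted p = 0.000481) and not in RS cells (-0.10 ± 0.18, adjusted p = 0.7), with a difference of 1.19 ± 0.31 (adjusted p = 0.0189) that was lost without the second dTAG-13 library of R cells (adjusted p = 0.056). Members called lower numbered 3 in R cells, beside 20.2% of genes, 3 in RS cells, beside 22.3%, and 4 in RS cells with S12N:SD2, beside 22.9%. In these last cells the Slc23a1 call (-0.62 ± 0.23, adjusted p = 0.0422) was lost without the first or the second library of either treatment (adjusted p = 0.0603 to 0.187). None was called higher, beside 21.6%, 15.9% and 18.5% of genes. Ripply1 in R cells had 16.0, 19.5 and 36.2 CPM in dTAG-13, and the third of these libraries stood apart from the other two over all genes, with a chi-square per degree of freedom of 72.2 and 88.6.

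Rapid loss of SUZ12 was followed in the degron line. No line without the mAID tag was kept in IAA, so loss of SUZ12 and an effect of IAA itself cannot be told apart. Nlrp4f averaged 33.3 ± 5.76 CPM in DMSO and 30.2 ± 1.39, 27.9 ± 2.55, 29.6 ± 1.70, 29.2 ± 9.48 and 15.4 ± 1.14 CPM after 2, 4, 8, 24 and 48 h of IAA. Calml4 averaged 3.76 ± 1.5 CPM in DMSO and 4.05 ± 0.660, 3.23 ± 0.689, 3.03 ± 1.11, 5.85 ± 2.07 and 1.03 ± 0.568 CPM at those times. Both genes stayed within the spread of their libraries up to 8 h and were lowest at 48 h. At 48 h Nlrp4f had 14.9, 16.8 and 14.7 CPM in IAA, against 30.1, 29.8 and 40 CPM in DMSO, and fell by 1.11 ± 0.19 (adjusted p = 0.000214). Calml4 was at 16, 14 and 4 reads in IAA, against 38, 62 and 92 reads in DMSO, and fell (adjusted p = 0.00249). Gab1 had 232, 227 and 228 CPM in IAA at 48 h, against 252, 210 and 199 CPM in DMSO, a log2 difference of 0.06 ± 0.25 (adjusted p = 0.872). Slc23a1 and Vrtn were at 0 to 9 reads in every library of this line and were not tested, and Ripply1 and Gad1 were at 1 to 18 reads. At 48 h 0 of the 5 members tested were called higher and 2 lower, beside 20.2% and 23.8% of the 14016 genes.

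At 24 h no member was called by edgeR or DESeq2 and 0 had an unadjusted p under 0.05, beside 16.4% of genes higher and 17.9% lower. The third 24 h library stood apart from the other two over all genes, with a chi-square per degree of freedom of 133 and 182, where 3.38 is the lowest for a pair in this dataset. Gab1 had 140, 114 and 313 CPM in these libraries, against 252, 210 and 199 CPM in DMSO, and Nlrp4f had 32.4, 36.6 and 18.5 CPM. Without that library Gab1 fell by 0.79 ± 0.11 (adjusted p = 2.47e-06) and Calml4 rose by 0.85 ± 0.35 (adjusted p = 0.0391). Nlrp4f fell at 48 h of IAA in this line and rose in RS cells against R cells, while Gab1 fell in the knockouts and did not pass the test here at 48 h. The differences between the systems were not tested. Primitive endoderm markers summed to 153 to 164 CPM at 48 h, against 71.7 to 104 CPM in DMSO.

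**Figure D5:**
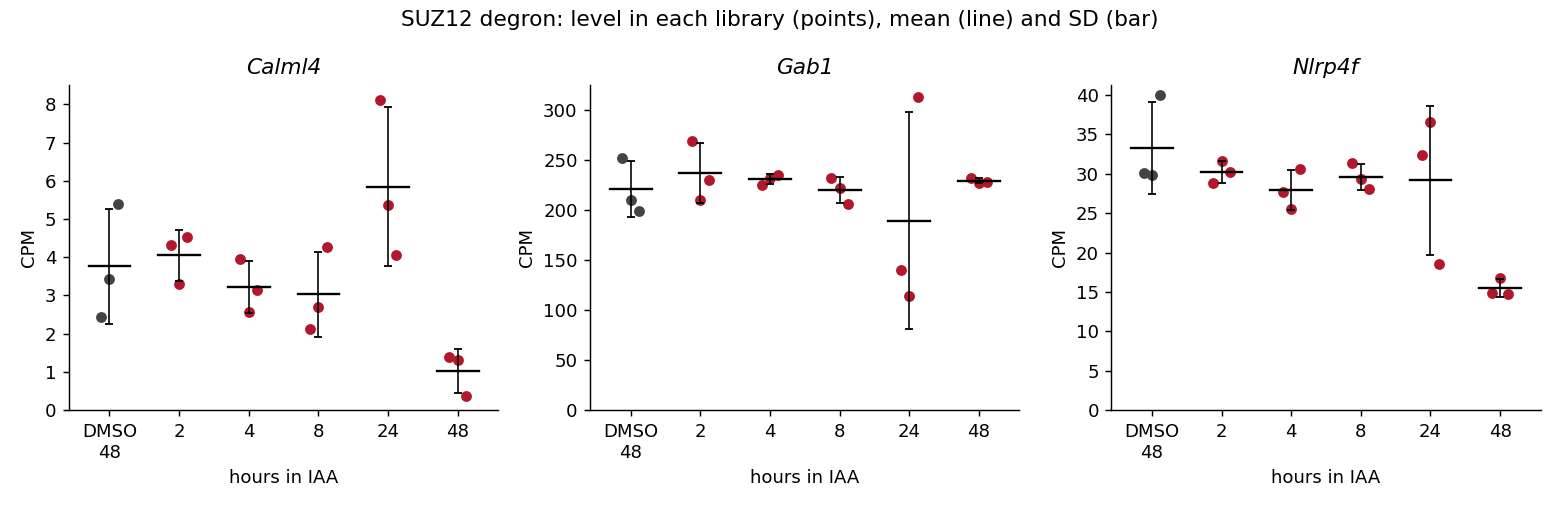
Level of Calml4, Gab1 and Nlrp4f in every library of the SUZ12 degron line, in CPM, for DMSO and 2 to 48 h of IAA; points are libraries, lines are group means and bars are SDs (n = 3). Nlrp4f averaged 15.4 CPM at 48 h, below the 33.3 CPM in DMSO, and the 24 h libraries of Gab1 spread from 114 to 313 CPM.

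Genes that work with the members, in lists without the members themselves, were counted in the same comparisons. In knockout against wild-type cells of the panel, 9 of 17 tested genes for GABA synthesis, transport and receptors were called higher and 2 lower, with Abat, whose product breaks GABA down, at 1.92 ± 0.24 on the log2 scale. On return of SUZ12, 2 were higher and 10 lower. Of 22 genes for receptor tyrosine kinase docking, 4 were higher and 9 lower in knockout cells, with the receptor gene Fgfr2 at -2.21 ± 0.17 and the adaptor gene Shc1 at -0.62 ± 0.08. With SUZ12 returned, 9 were higher and 3 lower, Fgfr2 at 2.35 ± 0.17. Of 17 somite genes, 5 were higher and 3 lower, with the related gene Ripply3 at 1.18 ± 0.16, opposite in sign to Ripply1. Of 11 oocyte NLRP and maternal complex genes, 6 were higher and 3 lower, with Khdc3, a maternal complex subunit, at 2.90 ± 0.20 and Nlrp9b at -2.38 ± 0.22. Of 23 genes for ascorbate transport and ascorbate-using dioxygenases, 7 were higher and 6 lower, with the collagen hydroxylase genes Plod2 at 1.53 ± 0.10 and P4ha2 at 2.80 ± 0.23. Of 12 calmodulin genes, 5 were higher and 3 lower. The counts in knockout cells stand beside 23.8% of genes higher and 23.2% lower, and those on return of SUZ12 beside 24.4% and 24.2%. Between S12N:SUV2 and its dead version, described without a test, the list medians on the log2 scale were -0.21 for GABA genes, 0.14 for somite genes, 0.03 for docking genes, 0.02 for NLRP genes, -0.01 for ascorbate genes and -0.16 for calmodulin genes.

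Of 23 tested genes of the H3K9 methylation system, 0 were called higher and 16 lower in the panel knockout and 7 were not called, beside the same 23.8% and 23.2% of all genes, with a median of -0.26 for the list and -0.02 for all genes. Ehmt1, which encodes a methyltransferase of H3K9, was at -0.62 ± 0.05, and the HP1 gene Cbx1 at -0.56 ± 0.06. On return of SUZ12, 13 were higher and 1 lower, beside 24.4% and 24.2% of all genes, with Suv39h1 at 0.94 ± 0.10. These list counts hold for the panel alone. Suv39h1 averaged 13.3 ± 1.67 CPM in knockout and 23.4 ± 0.496 CPM in wild-type cells of the panel, but 29.2 ± 0.794 and 28.2 ± 2.77 CPM in the HP1 dataset. In DMSO it averaged 26.5 ± 0.663 CPM in RS and 16.3 ± 0.498 CPM in R cells of the RBBP5 dataset with S12N:SUV2. In the one with S12N:SD2 it averaged 41.6 ± 2.49 and 38.2 ± 3.54 CPM. With S12N:SD2 against its dead version, where 8% of all genes were called higher and 10% lower, the counts were 0 higher and 1 lower of the GABA genes, 1 and 1 of the somite genes, 2 and 9 of the docking genes, 2 and 1 of the NLRP genes, 1 and 3 of the ascorbate genes, 0 and 1 of the calmodulin genes, and 1 and 3 of the H3K9 genes.

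The nearest protein-coding neighbours of the members were read in the same contrast, S12N:SUV2 against its dead version in the panel. Cln6, 6074 bases from Calml4, was at 0.56 ± 0.07 and Pias1, 2447 bases away on the other side, at 0.36 ± 0.07 on the log2 scale, against 1.99 for Calml4. Smarca5, 24941 bases from Gab1, was at 0.06 ± 0.05 and Usp38, 100214 bases away, at 0.23 ± 0.06, against 1.96 for Gab1. Paip2, a protein-coding gene that overlaps Slc23a1 on the other strand, was at 0.02 ± 0.06, and Matr3, 20769 bases away, at 0.22 ± 0.07, against 1.76 for Slc23a1. No source states that reads were counted by strand, so reads of overlapping genes cannot be assigned with certainty, and the same holds for Gad1 and its antisense gene Gad1os, for Calml4 and the pseudogene Gm10653, and for Gab1 and the non-coding Gm31105. Nlrp4f has close relatives in the genome, between which reads may be split. Tbc1d8b, 26144 bases from Ripply1, was at 0.01 ± 0.13. Beside Vrtn, at 0.92 ± 0.19, Syndig1l, 25822 bases away, was at 0.86 ± 0.53 and Abcd4, 23606 bases away on the other side, at 0.29 ± 0.11. The neighbours of Nlrp4f and Gad1, and 1 each of Slc23a1 and Ripply1, were not among the genes tested. For RS cells with S12N:SUV2 against RS cells in DMSO, Cln6 was at -0.12 ± 0.07, Pias1 at 0.06 ± 0.04, Smarca5 at -0.1 ± 0.02 and Usp38 at -0.18 ± 0.03. There Paip2 was at -0.02 ± 0.03, Matr3 at 0.18 ± 0.02, Abcd4 at 0.51 ± 0.06 and Tbc1d8b at -0.08 ± 0.1, and Syndig1l was not tested.

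Across the 14 group means of the panel and the RBBP5 dataset with S12N:SUV2, the members did not form 1 pattern. Pearson correlations of log2 CPM, centred within each dataset, ran from 0.85 for Slc23a1 with Vrtn and 0.78 for Gab1 with Ripply1 to -0.27 for Calml4 with Gad1 and -0.34 for Nlrp4f with Ripply1. Among 13174 other named genes, the 5 most like the members' mean profile were Aim2 (r = 0.948), a DNA sensor gene, Aplp1 (0.926), Actb (0.924), Iqcg (0.920) and Ehmt2 (0.912), which encodes a methyltransferase of H3K9. Aim2 was also at 1.31 for S12N:SUV2 against its dead version and at 1.4 for RS cells with S12N:SUV2 against RS cells, on the log2 scale. In these contrasts Iqcg was at 1.02 and 1.22, Aplp1 at 0.48 and 0.67, Ehmt2 at 0.3 and 0.4, and Actb at 0.16 and 0.25. The correlation takes no account of the size of a change. The gene most like a single member was Sde2 for Gab1 (0.968), Hdac3 for Ripply1 (0.965), Grhl2 for Slc23a1 (0.961), Mrc2 for Nlrp4f (0.929), Sbno2 for Vrtn (0.929), Dab1 for Gad1 (0.920) and Psmg2 for Calml4 (0.892). The 14 group means include the S12N:SUV2 lines, in which the members were chosen as high, so these values describe likeness over these 14 points only.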

How the data were processed

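The deposited values are raw read counts per gene, made by the authors. Per the submitters' processing notes, the panel and the RBBP5 dataset with S12N:SUV2 were handled with Trim Galore 0.4.5, STAR 2.4 on build mm10, HTSeq 0.9.1, Picard and DESeq2. For the RBBP5 dataset with S12N:SD2 the notes name HISAT2 2.2.1, with trimming by Trim Galore 0.6.7, counting by featureCounts 2.0.8 and use of DESeq2 1.46.0, and they name Trimmomatic and HISAT2 for the degron and HP1 datasets, whose counting tool is not given in the sources used here. Columns of the panel and of the RBBP5 dataset with S12N:SUV2 were matched to samples by name, in part by inference: VEFS was read as S12N, SET as SD2, FullH2 as SUV2, E14JU as wild type, JUS2_59 as the Suz12 knockout and RS14 as RS, and these groups rest on that reading. The 27179 rows with Entrez IDs were matched by ID, 25275 of them to a symbol. Members, lists and comparisons were chosen with earlier results of these data known. The rule for named genes took the 7 members, Suz12, Suv39h1, Suv39h2 and Setd2, the nearest protein-coding genes (GENCODE M21), the genes most like the members, and up to 4 genes per list with the smallest p, of which some are not reported here.

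Each dataset was fitted as a whole with edgeR 4.0.16 in R 4.3.3: filterByExpr, TMM scaling, a group-means model and the two-sided quasi-likelihood test, with Benjamini-Hochberg adjustment over all genes and a threshold of 0.05. The standard error is that of the unshrunk log2 fold change. DESeq2 1.42.0, other size factors, no filter, only the compared groups, a replicate block and each library left out were tried as alternatives. On simulated counts for S12N:SD2 against its dead version, 97 of 100 genes changed by 1 on the log2 scale and 100 of 100 changed by 2 were called, among 15921 genes. The simulation gave every gene the same spread and changed only genes averaging over 1 CPM. It therefore does not show how often genes with a wider spread or fewer reads would be called. Libraries held 8.80 to 29.97 M reads in the panel, 18.59 to 22.26 M and 11.44 to 17.78 M reads in the RBBP5 datasets, 8.31 to 18.81 M in the degron and 5.48 to 21.72 M in the HP1 dataset. Same-numbered knockout and wild-type libraries of the panel deviated together (r = 0.17, 0.12 and 0.12), and no other comparison had every r over 0.1. No pair of replicates agreed within sampling noise. Where labels name no separate cultures (the RBBP5 dataset with S12N:SD2), p-values measure only the spread between these samples.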

Additional observations from a re-analysis of the deposited data

Results flagged for a closer look

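The response to dTAG-13 differed by test between RS and R cells of the RBBP5 dataset with S12N:SD2 for 3 members. The RS response less the R response was -1.15 for Nlrp4f, 1.19 for Slc23a1 and -1.37 for Gad1 on the log2 scale.

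Other differences between systems were seen as opposite directions in all libraries and were not tested. Loss of SUZ12 gave Calml4 2.15 in RS against R cells of the RBBP5 dataset with S12N:SD2, at 1 to 11 reads a library, but -1.51 in the panel and -1.39 in the HP1 dataset. It gave Slc23a1 0.65 in the HP1 dataset, but -1.04 in the panel and -1.63 in the RBBP5 dataset with S12N:SUV2. It gave Gad1 0.78 in the panel and 1.91 in the HP1 dataset, but -0.81 in the RBBP5 dataset with S12N:SUV2. In the RBBP5 dataset with S12N:SD2, Slc23a1 (0.37 ± 0.19) and Gad1 (-0.13 ± 0.14) had overlapping libraries in RS and R cells. The degrader gave Ripply1 0.74 in R cells but -0.19 in RS cells with S12N:SUV2. Active against dead fusion gave Slc23a1 1.76 for S12N:SUV2 but -1.02 for S12N:SD2. The values of -1.63, -0.81, -0.19 and 1.76 use libraries of an S12N:SUV2 line or of its comparison group. Choosing members as high with that fusion favours these directions, so nothing is read from the contrasts with the other systems. The panel values on loss use knockout cells, which may also have been a comparison group in that choice.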

How the results depend on the processing

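Of 64 single-gene calls, none changed sign under any alternative, and 10 lost their call under at least 1. The replicate block changed no call: with the replicate block the panel knockout still had 7 members called. Counts of called members that moved by over 1.5 times were 1 for S12N against knockout cells of the panel (2 with other size factors, 3 with DESeq2, 1 to 2 with a library left out), 3 for S12NSD2dead against S12N (1 with only the compared groups), 2 for RS cells with S12N:SD2 against RS cells (4 with only the compared groups), 0 at 24 h of IAA (0 to 2 with a library left out) and 2 for S12N against knockout cells of the HP1 dataset (1 to 2 with a library left out); the other counts stayed within 1.5 times under the alternatives run. Leaving out a library moved the members' median between 0.15 and 0.34 for S12NSUV2dead against S12N and between 0.72 and 0.95 for RS cells with S12N:SUV2 against R cells. Values that changed sign had not passed the test. Gab1 for S12NSD2dead against S12N was -0.01 with no filter. With a library left out, that comparison ran from -0.04 to 0.06 for Gab1, -0.51 to 0.02 for Ripply1 and -0.19 to 0.08 for Gad1. Other ranges were -0.43 to 0.22 for Ripply1 in S12N against knockout cells of the panel, -0.19 to 0.10 for Gad1 with dTAG13 in R cells, -0.07 to 0.86 for Vrtn in RS cells with S12N:SD2 against RS cells, -0.22 to 0.08 for Slc23a1 and -0.01 to 0.16 for Ripply1 with dTAG-13 in RS cells, and -0.57 to 0.06 for Ripply1 in the RS less R response. In IAA they were -0.79 to 0.05 for Gab1 and -0.39 to 0.04 for Nlrp4f at 24 h and -0.02 to 0.16 for Gab1 at 48 h, and for the HP1 fusion against S12N -0.47 to 0.26 for Calml4, -0.24 to 0.36 for Slc23a1 and -0.04 to 0.41 for Gad1. The cause was not tested. Few reads limit Calml4 in the RBBP5 dataset with S12N:SD2 and Slc23a1, Vrtn, Ripply1 and Gad1 in the degron line.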
